A study of Mus musculus with 2 samples.

Results

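The Tcf1 ChIP-seq signal was examined at the 4 genes that encode the Runx transcription factors and their common partner, namely Runx1, Runx2, Runx3 and Cbfb. Members were all Tcf1 peaks of the deposited list whose summit, the base with the highest signal, fell inside the body of 1 of these genes or within 50 kb of either end. The rule used position only and took no account of peak height. It returned 42 of the 22286 deposited peaks, of which 12 lay at Runx1, 12 at Runx2, 16 at Runx3 and 2 at Cbfb.

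Naïve CD8+ T cells (GFP+ TCRbeta+ CD62Lhi CD44lo-med CD8+) were sorted from mouse spleen and immunoprecipitated with an antiserum raised against Tcf1, the product of Tcf7. There was 1 wild-type (WT) library and 1 control library, titled Tcf1-deficient. For the control cells the sources differ. The genotype field reads Tcf1-/-Lef1-/-, the design text names double-floxed Tcf1 and Lef1 alleles with hCD2-Cre and a Rosa26-lsl-GFP reporter in both arms, and the study's methods name Cd4-Cre+ Tcf7 fl/fl mice. hCD2-Cre is described by the study as acting mainly in mature peripheral T cells, whereas Cd4-Cre acts during thymic development, so whether Lef1 was also absent and when Tcf1 was lost cannot be told apart here. The study's methods describe young adult mice of both sexes on a C57BL/6 background, without saying which animals went into these libraries or how many were pooled. A peak list holds no expression value against which the labelled cell type could be checked.

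Sequencing gave 46428124 WT fragments, 36938606 of them after duplicate removal, against 36118114 and 27625250 in the Tcf1-deficient library. For each peak the list gives the pileup, which counts WT fragments covering the summit, and the fold enrichment, which is the pileup over the level expected from the Tcf1-deficient library after 1 was added to each. Because each genotype was represented by a lone library, no difference could be set against variation between animals. Intervals for pileups and fold enrichments are exact Poisson 95% intervals that cover counting error in the WT library only. Intervals for densities are Poisson intervals on the number of peaks, and those for shares are exact binomial. Both of these treat peaks as independent, which was not tested, and neither measures variation between animals. High-confidence peaks were those whose fold enrichment reached 4, with a p under 1e-05 and a q under 0.05. These criteria were met by 36 of the 42 member peaks (85.7%, exact binomial 95% interval 71.5 to 94.6%) and by 85.4% of all deposited peaks, so the loci were near the background in that respect.

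Runx proteins share a DNA-binding runt domain and bind DNA stably as heterodimers with Cbfb, a partner that does not itself contact DNA. Runx1 is required for blood stem cell formation and thymocyte development, Runx2 is best known for bone formation, and Runx3 silences Cd4 and supports the cytotoxic program in the CD8 lineage. Each Runx gene is transcribed from a distal promoter (P1) and a proximal promoter (P2), which give proteins with different amino termini and are used differently among cell types. Tcf1 and Lef1 bind DNA through an HMG box that recognises a short core sequence.

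The sequences around the summits that carry the findings are printed here, each covering 100 bp to either side of the summit on the plus strand of mm9 (NCBIM37). Peaks were numbered within each locus in the direction of transcription. Capitals mark the Tcf/Lef core (ATCAAAG), the Runx core (TGTGGTT), the GC box (CCCGCCC) or the shorter forms TCAAAG and TGTGGT, on either strand, each short form lying inside its longer core where the latter is present. An ETS core (CGGAAGT), an E box (CAGCTG) and an AP-1 site (TGANTCA) were searched in the same way and were not found in any of these windows. The first set shows the 5 member peaks with the highest fold enrichment.
Runx3 peak 6 (chr4:134676212-134676412): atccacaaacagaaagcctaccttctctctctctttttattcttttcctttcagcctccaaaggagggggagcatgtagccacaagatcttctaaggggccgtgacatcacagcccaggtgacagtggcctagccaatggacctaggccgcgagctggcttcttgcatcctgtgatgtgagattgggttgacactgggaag
Runx1 peak 8 (chr16:92787058-92787258): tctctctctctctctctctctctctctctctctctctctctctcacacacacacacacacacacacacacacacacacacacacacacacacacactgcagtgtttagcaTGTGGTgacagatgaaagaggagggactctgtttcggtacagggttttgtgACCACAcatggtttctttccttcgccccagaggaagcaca
Runx1 peak 4 (chr16:92822164-92822364): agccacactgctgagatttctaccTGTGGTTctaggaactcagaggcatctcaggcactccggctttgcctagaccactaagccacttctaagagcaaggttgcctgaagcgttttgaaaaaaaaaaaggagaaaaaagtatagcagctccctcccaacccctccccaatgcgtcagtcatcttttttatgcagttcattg
Runx3 peak 3 (chr4:134654509-134654709): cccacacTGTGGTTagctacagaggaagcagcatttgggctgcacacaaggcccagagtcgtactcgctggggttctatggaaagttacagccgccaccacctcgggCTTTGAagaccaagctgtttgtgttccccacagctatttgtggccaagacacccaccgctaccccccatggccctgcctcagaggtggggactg
Runx2 peak 8 (chr17:44791687-44791887): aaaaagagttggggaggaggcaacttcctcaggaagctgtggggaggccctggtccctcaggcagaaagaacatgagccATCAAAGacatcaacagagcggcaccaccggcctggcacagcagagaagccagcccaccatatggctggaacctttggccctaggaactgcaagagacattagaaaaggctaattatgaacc

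Of these 5 windows, only that of Runx2 peak 8 held the exact Tcf/Lef core. The next set shows 3 further high-confidence member peaks with the core, which had fold enrichments between 4.21 and 7.17.
Runx3 peak 1 (chr4:134630660-134630860): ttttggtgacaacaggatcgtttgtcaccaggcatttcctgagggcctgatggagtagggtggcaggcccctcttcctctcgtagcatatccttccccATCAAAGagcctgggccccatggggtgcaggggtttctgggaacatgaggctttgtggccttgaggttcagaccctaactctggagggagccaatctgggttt
Runx3 peak 8 (chr4:134705796-134705996): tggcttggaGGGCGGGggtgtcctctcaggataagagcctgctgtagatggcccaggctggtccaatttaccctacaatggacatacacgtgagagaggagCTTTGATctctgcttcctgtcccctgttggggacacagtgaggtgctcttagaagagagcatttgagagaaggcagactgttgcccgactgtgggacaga
Runx1 peak 6 (chr16:92810915-92811115): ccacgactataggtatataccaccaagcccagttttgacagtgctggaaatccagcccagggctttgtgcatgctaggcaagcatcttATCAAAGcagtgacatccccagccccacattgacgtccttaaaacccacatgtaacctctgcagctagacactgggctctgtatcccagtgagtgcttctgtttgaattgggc

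The last pair shows both Cbfb peaks, of which the second is given from the first base past the annotated gene end and was not high-confidence.
Cbfb peak 1 (chr8:107694288-107694488): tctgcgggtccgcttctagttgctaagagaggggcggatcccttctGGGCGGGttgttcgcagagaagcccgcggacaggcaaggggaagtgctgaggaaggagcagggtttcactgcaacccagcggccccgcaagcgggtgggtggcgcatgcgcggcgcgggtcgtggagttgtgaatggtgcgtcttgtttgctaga
Cbfb peak 2 (chr8:107741887-107742057): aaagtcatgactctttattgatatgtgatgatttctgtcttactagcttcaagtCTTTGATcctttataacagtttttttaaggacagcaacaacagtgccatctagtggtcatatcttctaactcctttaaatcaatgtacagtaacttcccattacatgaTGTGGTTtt

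Runx3 was the most densely occupied of the 4 loci. The gene (ENSMUSG00000070691.4, chr4:134676567-134733905, plus strand) spans 57.3 kb and had 15 high-confidence peaks of 16 deposited, or 9.53 per 100 kb of locus (5.34 to 15.7). Only 0.304% of the 22349 protein-coding genes had at least as many high-confidence peaks in a window drawn by the same rule, and the density ranked 153 among them. All 15 peaks had another high-confidence summit within 10 kb, as did 28 of the 36 member peaks (77.8%) and 49.1% of all high-confidence peaks.

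The tallest member peak lay at the distal promoter of Runx3. Runx3 peak 6 (summit chr4:134676312) had a pileup of 423 and a fold enrichment of 66.1 (59.9 to 72.7), 255 bp upstream of the P1 start and 50 bp from the start of Gm16225, a noncoding gene in whose body the summit fell. It ranked 33 among the 19042 high-confidence peaks of the genome. Its window, printed above, held none of the 6 motifs searched and neither short form.

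At the proximal promoter of Runx3 the signal was far lower around the start site of the coding transcript, which defined P2 here. Several noncoding Runx3 transcripts start further downstream and were not counted as P2. Within 1 kb of the P2 start, 31.8 kb downstream of P1, the higher of 2 peaks was Runx3 peak 10 with a pileup of 30 and a fold enrichment of 4.83 (3.31 to 6.83), 669 bp past the start. Peak 10 also lay 5 bp from the start of a noncoding Runx3 transcript. The other, Runx3 peak 9, lay 99 bp past the start with a pileup of 23 and a fold enrichment of 3.74 (2.43 to 5.53), under the minimum of 4. The pileup at P1 was 14.1 times that of peak 10 (9.73 to 21.2) and 18.4 times that of peak 9 (12.1 to 29.3), so the promoters differed beyond counting error within this library. GC content was 82.6% in the window around peak 9 against a median of 52.5% over the high-confidence member peaks, and the part of GC content in this difference was not tested.

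Taller peaks stood just past P2. Runx3 peak 11, in the intron 1.60 kb past the coding start and 340 bp from the start of a noncoding Runx3 transcript, had a pileup of 124 and a fold enrichment of 17.8 (14.8 to 21.2), and Runx3 peak 12, in an exon 3.05 kb past it, had 92 and 14.5 (11.7 to 17.7). The pileup at P1 was 3.41 times that of peak 11 (2.79 to 4.20), so the contrast between the promoters was smaller if that start was counted as part of P2. Peak 11 contained a run of 62 bp in which 2 bases alternated, and its control level of 6.02 fragments was above the floor of 5.42 that most peaks shared. From P2 to the gene end the locus held 4 high-confidence peaks in 25.5 kb, the densest stretch of the zones compared at 15.7 per 100 kb (4.27 to 40.2), although this interval overlapped that of the 50 kb upstream (4.40 to 26.1).

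Upstream of Runx3 there were 6 high-confidence peaks in 50 kb, peak 6 included. Runx3 peak 3, 22.0 kb upstream of P1, reached a pileup of 165 and a fold enrichment of 25.9 (22.1 to 30.1), and Runx3 peak 2, 40.1 kb upstream, reached 120 and 18.9 (15.7 to 22.5). Peak 3 held the short Tcf/Lef form 9.5 bp from its summit and a Runx core 90 bp away. Runx3 peak 5, 11.8 kb upstream, had the highest control level of all members, 8.69 fragments, and a fold enrichment of 6.40 at a pileup of 61. The remaining high-confidence Runx3 peaks outside promoters, 8 in number, ranged from 26 to 49 in pileup, and 3 of them, peaks 14, 15 and 16 with pileups of 26, 41 and 46, lay past the gene end. Among the other 5, the tallest was Runx3 peak 7 between the promoters at 49 and the lowest Runx3 peak 4 upstream at 33, so all 8 were lower than Runx3 peaks 6, 11 and 12.

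**Figure D1:**
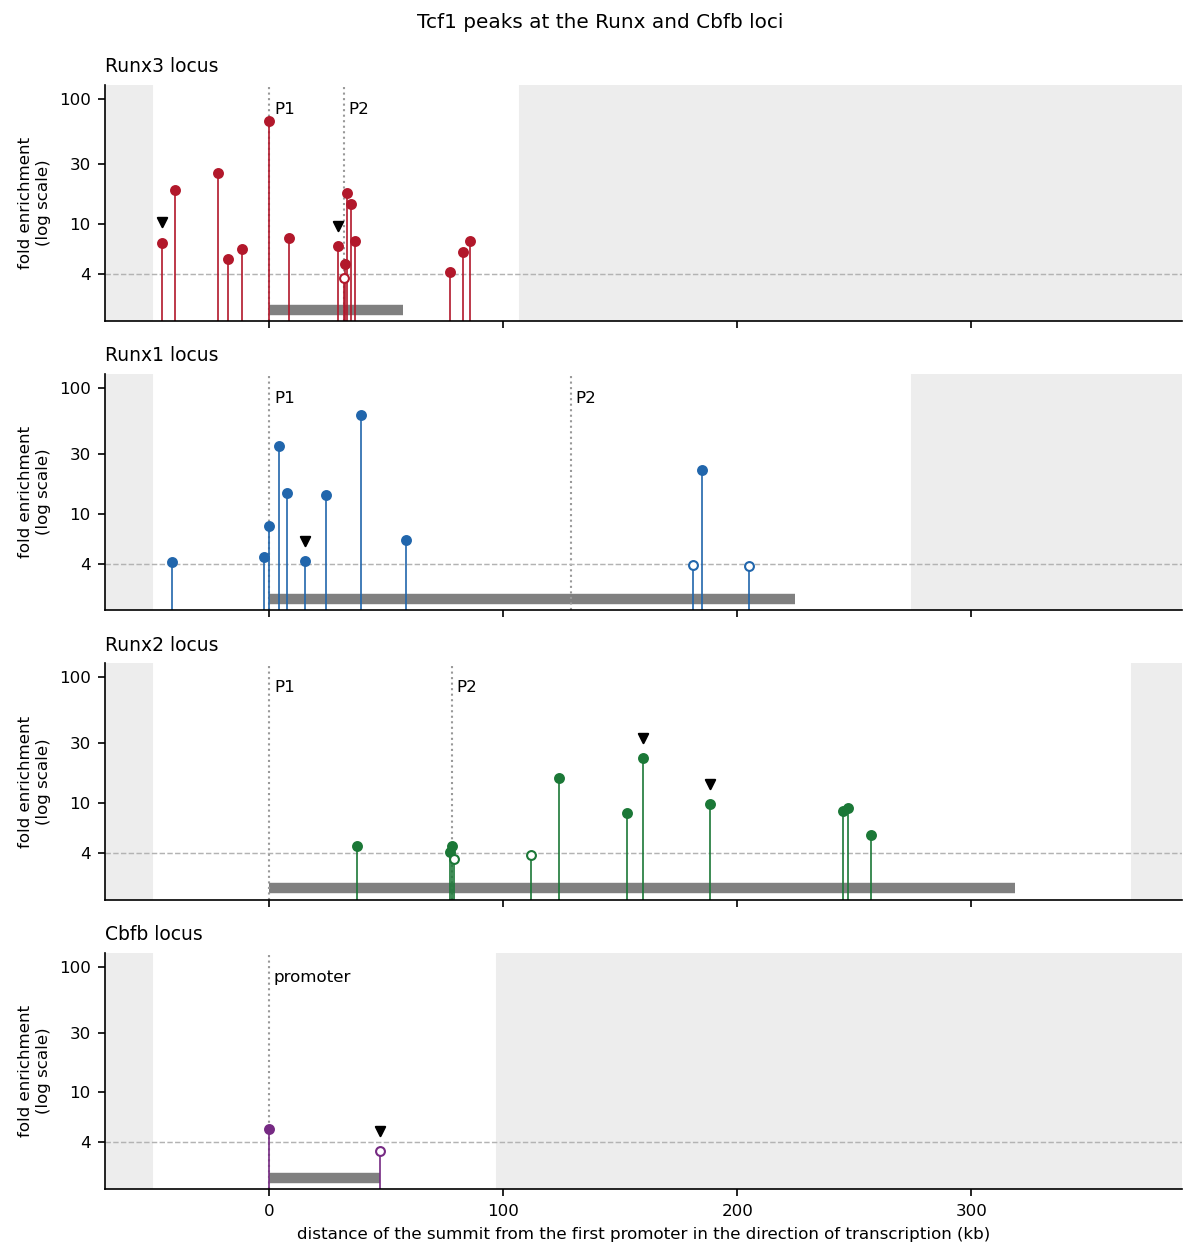
Fold enrichment of every deposited peak (vertical axis, logarithmic) against the distance of its summit from the first promoter in kb, in the direction of transcription, at Runx1, Runx2, Runx3 and Cbfb, with filled points for high-confidence peaks, open points for those under the minimum of 4 (dashed line), black triangles for the exact Tcf/Lef core, a grey bar for the gene and dotted lines for P1 and P2. The tallest points are the P1 peak of Runx3 at 66.1 and the intronic peak of Runx1 at 61.1, and no point lies near P2 of Runx1 or P1 of Runx2.

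Runx1 had fewer peaks over a longer gene, and most of them lay between its promoters, which is also the longest zone. The gene (ENSMUSG00000022952.9, chr16:92601712-92826311, minus strand) spans 224.6 kb and had 10 high-confidence peaks, or 3.08 per 100 kb of locus (1.48 to 5.67), an interval whose upper end overlapped that of Runx3. Of these, 7 lay in the 128.7 kb between P1 and P2, 1 in the 95.9 kb from P2 to the gene end and 2 in the 50 kb upstream. Per 100 kb this was 5.44 (2.19 to 11.2), 1.04 (0.0264 to 5.81) and 4 (0.484 to 14.4), so the densities of these zones could not be told apart. The median fold enrichment was 11.1 and 3 of the 10 reached 20 (30%, 6.67 to 65.2%), an interval that included the 7.98% of all high-confidence peaks.

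The highest Runx1 peaks lay in introns. Runx1 peak 8 (summit chr16:92787158), 39.2 kb past P1, had a pileup of 391 and a fold enrichment of 61.1 (55.2 to 67.4) and ranked 46 in the genome. Its pileup differed from that of the Runx3 P1 peak by a ratio of 1.08 (0.941 to 1.24), which was within counting error. It alone held 35.3% of the pileup summed over the Runx1 high-confidence peaks. As the printed sequence shows, the lower-coordinate side of the summit was a run of CT and CA repeats, the longest stretch of 2 alternating bases being 52 bp, and on the other side 2 copies of TGTGGT stood 12.5 and 63.5 bp from the summit. Stretches of at least 40 bp were present in 2 of the 36 member peaks and in 2.60% of all high-confidence peaks, and how reads aligned over them was not tested.

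Runx1 peak 4, 4.05 kb past P1, had a pileup of 220 and a fold enrichment of 34.4 (30.1 to 39.3), and a Runx core lay 73 bp from its summit. Runx1 peak 11, 56.1 kb past P2, had 142 and 22.3 (18.8 to 26.2) and was the only high-confidence peak from P2 to the gene end. Peaks 5 and 7, also between the promoters, were close to each other in height with pileups of 93 and 90 and fold enrichments of 14.6 and 14.2. The pileup of peak 8 was 1.78 times that of peak 4 (1.5 to 2.11). The other Runx1 peaks were low. Runx1 peaks 1 and 2, 41.5 and 2.1 kb upstream of P1, had pileups of 28 each, and Runx1 peak 9, 58.5 kb past P1, had 39 and held 2 copies of the Runx core. Runx1 peak 12, past P2, had 26 and a fold enrichment of 3.85 at a control level of 6.02, whereas Runx1 peak 6 with the same pileup reached 4.21 at the floor of 5.42. Peak 12 held 2 AP-1 sites.

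At the distal promoter of Runx1 the signal was moderate, and at the proximal promoter the list held no peak. Runx1 peak 3, 67 bp from the nearest P1 start and within its first exon, had a pileup of 50 and a fold enrichment of 7.95 (5.94 to 10.4), with 2 copies of the Runx core 8 and 92 bp from the summit. The pileup of Runx1 peak 8 was 7.82 times that of peak 3 (5.82 to 10.7). The annotated P2 starts, chr16:92695895-92697573, lay 50.8 kb from the nearest deposited summit, inside a stretch of 122.8 kb without a summit. A list of called peaks gives no signal for such a site, so the level there was not measured. The smallest pileup in the whole list was 18, and signal under the caller's threshold would not be listed.

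**Figure D2:**
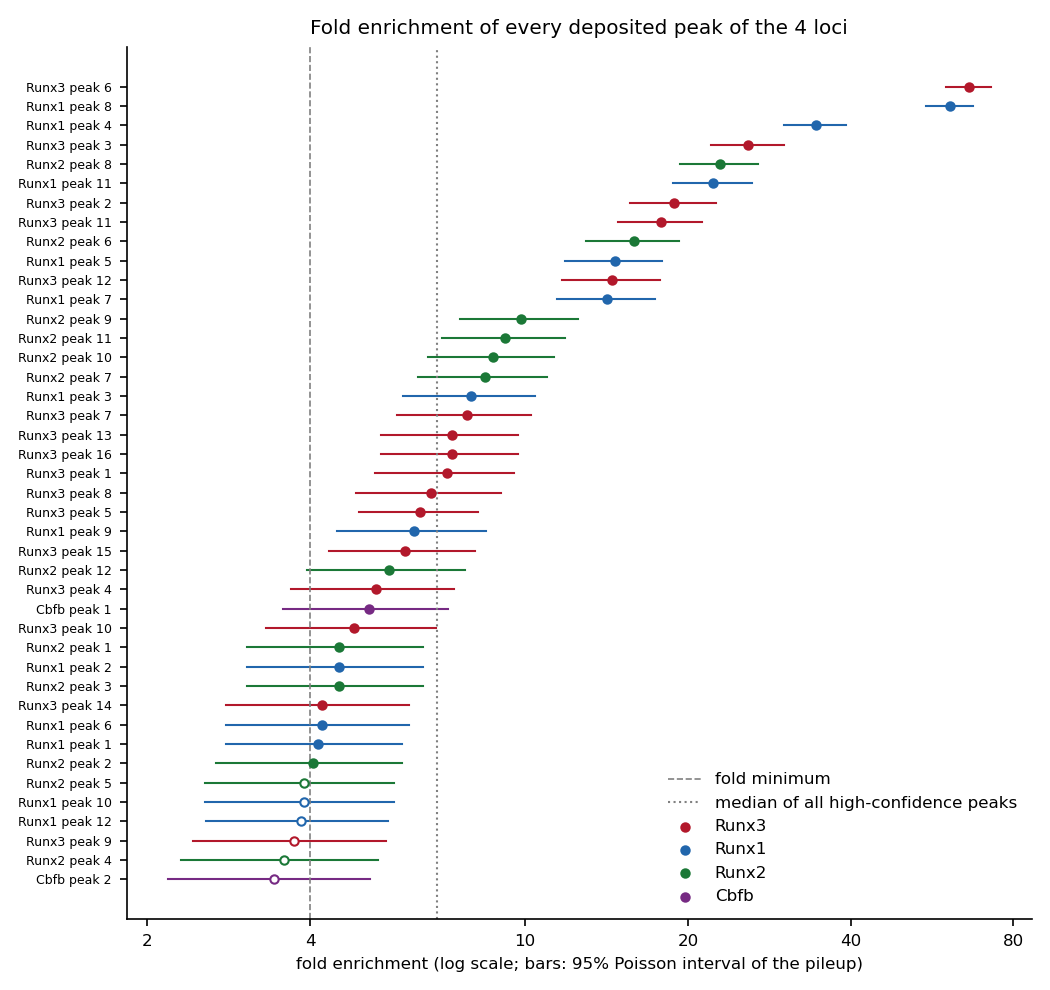
Fold enrichment of all 42 member peaks (logarithmic axis), ordered by fold enrichment and coloured by gene. Bars are exact Poisson 95% intervals of the pileup and cover counting error only. Open points are under the minimum of 4 (dashed line), and a dotted line marks the median of all high-confidence peaks. Runx3 peak 6 at 66.1 and Runx1 peak 8 at 61.1 stand above Runx1 peak 4 at 34.4, and the lowest member, Cbfb peak 2, has 3.43.

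Runx2, the family member best known from bone, carried 10 high-confidence peaks. The gene (ENSMUSG00000039153.9, with a nested second entry ENSMUSG00000092206.1, chr17:44632936-44951746, minus strand) spans 318.8 kb, and its density of 2.39 per 100 kb of locus (1.15 to 4.39) was the lowest of the 3 Runx genes. As at Runx1, 2.0% of protein-coding genes had at least that many peaks. Its highest fold enrichment, 22.9, ranked 2086 among gene windows, where those of Runx3 and Runx1 ranked 66 and 94.

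Most Runx2 peaks lay past P2, which is also the longest zone. From P2 to the gene end there were 8 high-confidence peaks in 240.7 kb, between the promoters there were 2 in 78.0 kb, and in the flanks there were none. Per 100 kb this was 3.32 (1.44 to 6.55) past P2 and 2.56 (0.311 to 9.26) between the promoters, so the densities of these zones could not be told apart. Runx2 peak 8 (summit chr17:44791787), 81.8 kb past P2, had a pileup of 146 and a fold enrichment of 22.9 (19.4 to 26.9), and the exact Tcf/Lef core was centred 18 bp from its summit. Runx2 peak 6, 46.0 kb past P2, had 101 and 15.9 (13.0 to 19.3). The other high-confidence peaks past P2 and away from its start sites had pileups from 35 to 62, all lower than peaks 6 and 8.

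At the Runx2 promoters peaks were listed at P2 only, and all were low. Around the P1 starts (chr17:44951175-44951576) the list held no peak within 1 kb, and the nearest summit was 37.2 kb away. Around the P2 starts there were 3 peaks, Runx2 peaks 2, 3 and 4, with pileups of 25, 28 and 22 and fold enrichments of 4.05 (2.68 to 5.91), 4.52 (3.05 to 6.46) and 3.58 (2.30 to 5.35). Their intervals all reached under the minimum of 4, and with P1 not measured no order of the promoters could be read. The pileup of Runx2 peak 8 was 5.21 times that of the highest of the 3 (3.46 to 8.12). Peaks 2 and 3 also fell within Gm10497, and which of the genes a site there might act on was not tested. Runx2 peak 1 was 115 bp from a start site of Supt3h, a gene for a SAGA coactivator subunit that overlaps Runx2, with a pileup of 28 and both an ETS core and a GC box.

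Cbfb was sparsely occupied. The gene (ENSMUSG00000031885.7, chr8:107694574-107741886, plus strand) spans 47.3 kb and has 1 annotated start site of coding transcripts. Cbfb peak 1, the only high-confidence peak, lay 186 bp upstream of that start with a pileup of 32 and a fold enrichment of 5.14 (3.57 to 7.19). The pileup of the Runx3 P1 peak was 13.2 times as high (9.22 to 19.6). The list held no peak within the gene body. The density of 0.679 per 100 kb (0.0172 to 3.78) was below the median of 0.972 over all protein-coding genes, and 61.8% of genes were as dense or denser.

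Cbfb peak 2 lay just past the gene end with a pileup of 21 and a fold enrichment of 3.43 (2.18 to 5.16), under the minimum. It was the only member peak of the 42 with both a Tcf/Lef core, 13 bp from the summit, and a Runx core, 95 bp away. Among the 36 high-confidence member peaks 0 held both, and among all 19042 there were 277.

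**Figure D3:**
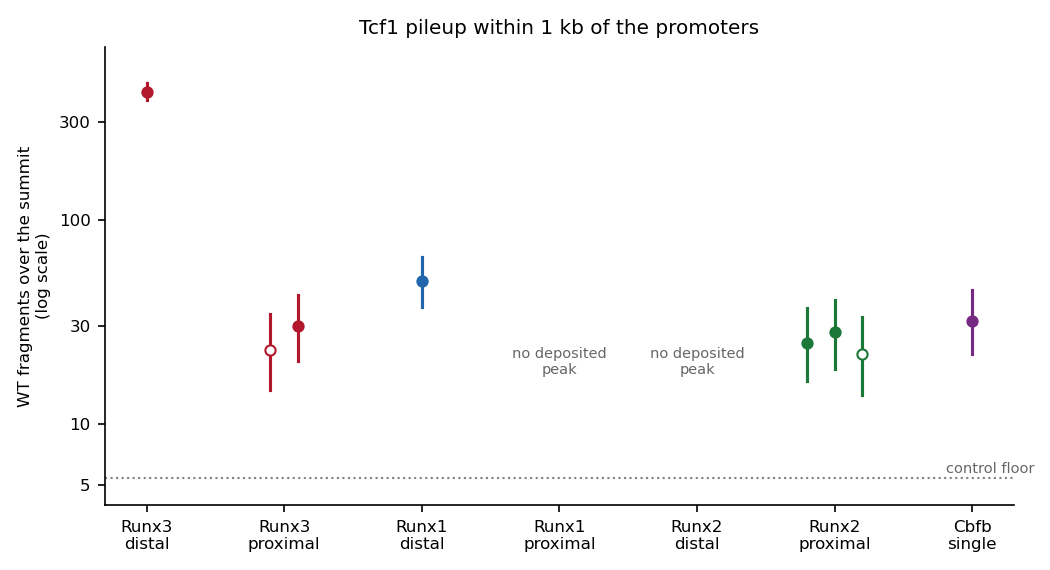
Pileup in WT fragments (logarithmic axis) of each deposited peak within 1 kb of the start sites of each promoter, with exact Poisson 95% intervals and a line at the control floor of 5.42 fragments. P1 of Runx3 stands at 423, P1 of Runx1 at 50, the Cbfb promoter at 32 and the P2 promoters of Runx2 and Runx3, defined by coding starts, at no more than 30, with Runx3 peak 11 at 124 near a noncoding start left out, while P2 of Runx1 and P1 of Runx2 have no deposited peak.

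Across the 3 genes with a promoter pair, the distal promoter carried the taller peak at Runx3 and was the only promoter with a listed peak at Runx1, whereas at Runx2 only the proximal promoter had listed peaks. The levels at P2 of Runx1 and P1 of Runx2 were not measured, so an order of P1 and P2 could be read at Runx3 only. High-confidence peaks within 1 kb of any annotated start site were 8 of the 36 members (22.2%, 10.1 to 39.2%), and the upper bound was just under the 39.6% found over all high-confidence peaks. The promoter peaks of the members had a median fold enrichment of 4.99 against 6.54 for all promoter peaks, and only the Runx3 P1 peak among them reached 20. Outside promoters the medians were 8.10 for 28 members and 7.17 for all 11495 such peaks.

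In height the member peaks as a whole were close to the rest of the list. Their median fold enrichment was 7.56 (interquartile range 5.26 to 15.0) and that of all high-confidence peaks was 6.86 (5.14 to 10.6). Fold enrichments of at least 20 were found in 6 members (16.7%, 6.37 to 32.8%), namely 3 at Runx1, 2 at Runx3 and 1 at Runx2. The interval included the 7.98% of all high-confidence peaks. The control level was at the floor of 5.42 fragments in 32 of the 36 peaks (88.9%), against 86.3% of all high-confidence peaks, so for most members the fold enrichment followed the WT pileup alone. Member peaks had a median width of 452.5 bp against 484 bp for all, and the widest were Runx3 peak 11 at 1207 bp, Runx1 peak 3 at 1165 bp and Runx3 peak 2 at 1148 bp. The tallest peak, Runx3 peak 6, measured 888 bp and was narrower than these 3.

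All 4 loci had at least 1 high-confidence peak, which was true of 66.5% of protein-coding genes, and the 3 Runx loci had at least 1 with a fold enrichment of 20, which was true of 12.2%. A gene had a median of 1 high-confidence peak in such a window (interquartile range 0 to 3). Longer genes have longer windows, so the density per 100 kb was also ranked, and Runx3 stood at 0.685% from the top, Runx1 at 18.9% and Runx2 at 28.2%. Thus the count of peaks set Runx1 and Runx2 further apart from other genes than the density did, while Runx3 stood near the top by either measure.

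**Figure D4:**
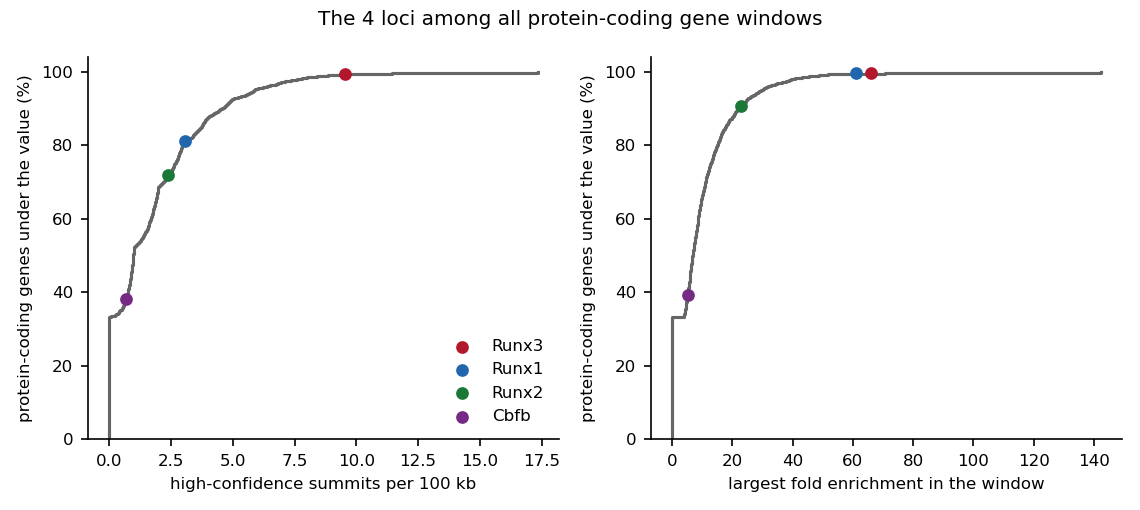
Cumulative percent of 22349 protein-coding genes under a given number of high-confidence peaks per 100 kb (left) and under a given highest fold enrichment (right). Genes without a high-confidence peak are included at 0 in both panels, and the 4 loci are marked. Runx3 lies near the top in both panels at 9.53 per 100 kb and 66.1, Runx1 is near the top by fold enrichment only, and Cbfb is on the lower part of both.

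The exact Tcf/Lef core was found within 100 bp of 5 of the 36 high-confidence member summits (13.9%, 4.67 to 29.5%), against 10.2% of all high-confidence peaks. In windows of the same size 2 kb to each side of the members it was present in 3 of 72 (4.17%). The 5 peaks included Runx3 peaks 1 and 8, Runx1 peak 6 and Runx2 peak 8, in which the core was centred 1, 4, 9 and 18 bp from the summits, respectively. Runx3 peak 1 lay 45.8 kb upstream of P1 with a pileup of 45 and a fold enrichment of 7.17 (5.27 to 9.54). Runx3 peak 8 lay 2.52 kb upstream of P2 with 42 and 6.70 (4.87 to 9.0), and Runx1 peak 6 lay 15.3 kb past P1 with 26 and 4.21 (2.80 to 6.09).

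The tallest peak held the core at Runx2 but not at Runx1, Runx3 or Cbfb. Over all loci, members with the core had a median fold enrichment of 7.17 and those without it 7.79, whereas over all high-confidence peaks the medians were 8.57 and 6.70. At Runx2 alone the order was the other way, with medians of 16.4 over 2 peaks with the core and 7.01 over the rest, and such small sets show no more than these values. Of the 6 members with a fold enrichment of at least 20, 1 held the core, against 20.6% of all such peaks, a difference that 6 peaks cannot resolve (0.421 to 64.1%). None of the 8 promoter peaks held it. The shorter form TCAAAG was within 100 bp of 14 members (38.9%, 23.1 to 56.5%) and of 26.4% of all high-confidence peaks.

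The Runx core, the binding sequence of the proteins these genes encode, was present in 9 of the 36 high-confidence member peaks (25%, 12.1 to 42.2%) and in 15.5% of all. The members' own flanks held it in 11.1% of windows, also above the 5.24% of all flanks. Peaks with it were Runx1 peaks 3, 4 and 9, Runx2 peaks 7 and 10, and Runx3 peaks 3, 5, 13 and 14. Runx1 peaks 3 and 9 and Runx2 peak 10 each held 2 copies. Outside promoters the share was 28.6% (13.2 to 48.7%) for members and 21.7% for all, so these intervals did not separate members from other peaks.

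The other 4 motifs were each found in 1 or 5 members. The ETS core was in 1 member (2.78%, against 6.93% of all), the AP-1 site in 1 (2.78% against 6.37%), the GC box in 5 (13.9% against 17.8%) and the E box in 5 (13.9% against 12.2%). None of the 6 motifs was found in 13 of the 36 members (36.1%), against 44.8% of all high-confidence peaks. A match describes letters in a window and does not by itself mark a bound site.

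**Figure D5:**
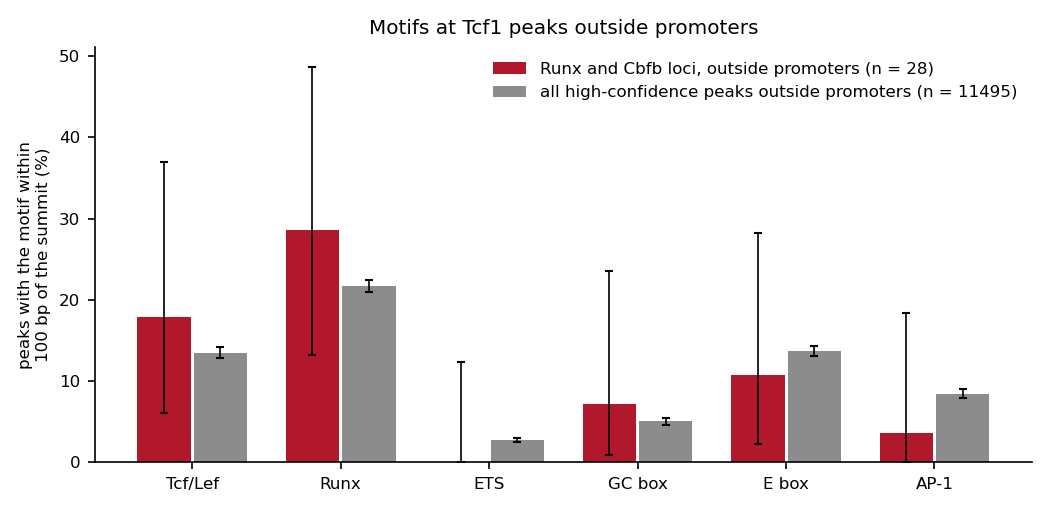
Percent of high-confidence peaks outside promoters with each of the 6 motifs within 100 bp of the summit, for the 28 members and all 11495 such peaks, with exact binomial 95% intervals. The members' interval for the Tcf/Lef core, 6.06 to 36.9%, and that for the Runx core, 13.2 to 48.7%, contain the shares of all peaks, 13.5% and 21.7%.

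The surroundings of the pathway were described with 2 gene lists. Among 15 cofactors that bind Runx proteins, 14 had at least 1 high-confidence peak and 4 had a peak with a fold enrichment of at least 20, with a median density of 1.63 per 100 kb. Over all protein-coding genes these were 66.5%, 12.2% and 0.972 per 100 kb. The 4 were Tle3 (21.5) and Tle4 (28.2), both Groucho corepressors, Ep300 (20.9), a histone acetyltransferase, and Kat6b (22.4), another acetyltransferase. Runx1t1, the fusion partner of Runx1 in leukaemia, had 0 peaks.

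Among 17 genes known as Runx targets in T cells, 15 had at least 1 high-confidence peak and 11 had a peak with a fold enrichment of at least 20, with a median density of 3.41 per 100 kb, beside the same 66.5%, 12.2% and 0.972 per 100 kb over all protein-coding genes. The coreceptor genes Cd8b1 and Cd8a, whose windows overlap, had 19 and 16 peaks, with highest fold enrichments of 81.2 and 14.2. Cd4, the coreceptor gene silenced in CD8+ T cells, had 4 peaks up to 34.1, and Zbtb7b, which encodes the CD4 lineage factor ThPOK, had 3 up to 10.1. Il7r, the receptor for a survival cytokine, had 7 up to 48.9, and Ifng, an effector cytokine, had 7 up to 38.2. Eomes and Il4 had 0. Both lists were assembled with earlier results of these data known, so their counts carry no weight beyond description.

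The peaks nearest the fold minimum of 4 were Runx1 peak 10 and Runx2 peak 5 just outside it, each with a pileup of 24 and a fold enrichment of 3.90, and Runx2 peak 2 and Runx1 peak 1 just inside it, with 25 and 4.05 and with 28 and 4.13. Of the 36 high-confidence members, 11 had intervals that reached under 4, and all 6 members under the minimum had intervals that reached it. For these peaks, which side of the minimum they fell on was within counting error.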

How the data were processed

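Tcf1 ChIP-seq was performed in 1 WT and 1 Tcf1-deficient library. Per the labels, reads were aligned to mm9 with Bowtie2 version 2.2.5 and peaks called with MACS2 2.1.1, setting WT (treatment) against Tcf1-deficient (control). The deposited signal is the pileup, a coverage in whole WT fragments. The deposited fold enrichment is a ratio with a pseudocount of 1, and the deposited −log10 p and −log10 q are the caller's own scores. The file header describes scaling of the larger library, yet for 21920 of 21920 recomputed peaks the unscaled pileup gave the deposited −log10 p within 0.01. The deposited p compares 2 libraries and not genotypes.

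From these values the control level was computed back as (pileup + 1)/fold − 1, with a floor of 5.42. Positions came from GENCODE vM1, and sequences from the NCBIM37 genome. P1 and P2 were the most upstream and most downstream clusters (gap over 10 kb) of coding start sites. Gene windows were the body of each of 22349 protein-coding genes plus 50 kb. Poisson and Clopper-Pearson intervals at 95%, and conditional binomial intervals for pileup ratios, used SciPy 1.17.1. Those of pileups, fold enrichments and ratios cover counting error only, and those of densities and shares treat peaks as independent. Fragments at the same position had been reduced to 1 by the caller. Peaks described individually were those within 1 kb of a start site of the 4 genes, the 3 highest of each locus, those with the exact Tcf/Lef core and those nearest the fold minimum, together with others singled out after their values were seen. Windows reaching into untranslated regions were not printed or were shortened, and 1 peak with the core is not reported here individually. The statistics were tested on simulated data. Members, lists and motifs were chosen with earlier results of these data known.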

Additional observations from a re-analysis of the deposited data

How the results depend on the processing

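For 12 results, 70 values were recomputed in all, each with 1 setting changed, and 55 stayed within the tolerance set for them (1.5 times for a count, the interval otherwise). The 15 that moved concerned mainly the fold minimum. With a fold minimum of 8, 16 member peaks were left (5 at Runx1, 6 at Runx2, 5 at Runx3 and 0 at Cbfb), the median fold enrichment was 16.9, the high-confidence share was 38.1% and the density was 1.53 per 100 kb. With no fold minimum Cbfb had 2 peaks. With a flank of 100 kb Cbfb had 3, with a flank of 20 kb Runx3 had 9, and in the gene body only Runx3 had 6 and Cbfb 0. The short core of 6 bases raised the Tcf/Lef share to 38.9%, and without an assumed pseudocount the control level was 6.3. Adding AACAAAG to the Tcf/Lef core, chosen after seeing the data, left the share at 13.9%. No paired analysis was possible because each group had 1 library and no test was run, and leaving out a replicate was not possible for the same reason. A peak list gives no signal where no peak was called, which limits what can be said of P2 of Runx1 and P1 of Runx2.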

Other observations

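Short Tcf/Lef and Runx forms (TCAAAG and TGTGGT) lay within 100 bp of the same summit in 4 of the high-confidence member peaks, Runx1 peak 1 and Runx3 peaks 3, 4 and 13. In Runx1 peak 1, 41.5 kb upstream of P1 with a fold enrichment of 4.13, the forms directly adjoined each other with a gap of 0 bp. In Runx3 peak 13 the nearest pair was separated by 31 bp, in Runx3 peak 3 by 94 bp and in Runx3 peak 4 by 143 bp. These spacings were read after the sequences had been seen and were not compared with other peaks.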
